A study of Caenorhabditis elegans with 15 samples.

Results

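A set of 321 *Caenorhabditis elegans* genes is described here whose transcripts were lower in *gas-1* mutants than in wild-type nematodes (wt) and higher again in *age-1; gas-1* double mutants. Of 20483 genes measured, 11648 reached at least 1 FPKM (sequenced fragments per kilobase of a transcript, adjusted for depth) in at least 5 of the 15 libraries. Strain means were taken on the log2(FPKM + 0.1) scale, and the 321 members, or 2.76% of the 11648 genes, had a *gas-1* minus wt difference of -0.3 or less together with an *age-1; gas-1* minus *gas-1* difference of 0.3 or more. The members were thus chosen by these differences of strain means, which are given below as a description, without a test. Because both differences contain the same 5 *gas-1* libraries, a gene with a low value there by chance met both thresholds more easily. Another 28 genes met both thresholds but were left out by name, namely 8 *ttr-*, 4 *clec-*, 3 *asp-* and 3 *ugt-* genes, 2 each of the *fbx*, *pud-* and *cyp-* names and 1 each of the *msp-*, *col-*, *nhr-* and *tiar-* names.

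Messenger RNA was sequenced from whole animals, with 5 biological replicates per strain. The wt animals carried neither mutation, *gas-1* mutants carried the fc21 allele, and the double mutants carried *age-1(hx546)* and the same *gas-1(fc21)* allele. All animals were synchronized with hypochlorite, grown at 20 °C on OP50 bacteria and labelled as L4 larvae, whereas the study's methods describe RNA taken from young adults, so the stage at collection is uncertain. An *age-1* single mutant was not analysed here, so differences between the double mutant and *gas-1* mutants were measured only in a *gas-1* background. The mutated genes themselves gave no check of the labels, since fc21 and hx546 are not known to remove the transcript, and the level of *gas-1* RNA was 115 ± 11.04 FPKM in wt, 219.5 ± 19.4 in *gas-1* mutants and 221 ± 13.3 in the double mutant (SD, n = 5 each). In RNA from whole animals, fewer cells of a type and less RNA per cell cannot be told apart.

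GAS-1 is a core subunit of respiratory complex I, and its loss lowers electron transport from NADH. AGE-1 is the catalytic subunit of the phosphoinositide 3-kinase that acts below the insulin/IGF-1 receptor DAF-2, and less of its activity lets the transcription factor DAF-16/FOXO enter nuclei. DAF-16 is known for raising genes of lipid metabolism, stress defence and innate immunity, many of them in the intestine, the tissue that in nematodes digests food, stores fat, makes yolk and secretes antimicrobial proteins.

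The rule fixed a drop and a rise for every member but no return to the wt level, and 120 of the 321 members were still lower than wt by at least 0.3 in the double mutant. The set also mixed 2 patterns. Within strains, all but 209 of the 321 members varied together with the genes for major sperm protein (MSP), the cytoskeletal protein of nematode sperm, whose own *msp-* names the rule left out. For each gene, the deviations of the 15 libraries from their strain means were correlated with the median deviation of 18 *msp* genes. These genes, called sperm-tracking members below, had a correlation of at least 0.8 and a within-strain SD of at least 0.5 on the log2 scale, limits set after the values were seen. Their median correlation was 0.98, compared with 0.18 for the other 209 members, where the points are the same 15 libraries for every gene. The split used this correlation, so the gap between these medians was largely fixed by it and nothing is read from it. Another 10 members reached the correlation limit with a smaller SD and are counted among the 209. Of all 11648 genes, 564 (4.84%) met these limits, compared with 34.9% of the members.

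In these data 4 libraries were low in sperm transcripts, 1 of wt (replicate 3), 1 of *gas-1* (replicate 2) and 2 of *age-1; gas-1* mutants (replicates 2 and 5). The summed FPKM of 98 sperm genes was 121 in wt replicate 3, compared with up to 971 in the other wt libraries. It was 164 in *gas-1* replicate 2, where the strain reached 368. Double-mutant replicates 2 and 5 had 153 and 167, where the strain reached 495. Results on the sperm-tracking members are therefore given with and without these 4 libraries.

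The median of the sperm-tracking members, as log2(FPKM + 0.1), was 1.51, 1.57, -1.92, 1.54 and 0.59 in wt replicates 1 to 5, 0.17, -1.50, 0.23, 0.52 and 0.03 in those of *gas-1* mutants and 1.25, -1.08, 1.06, 1.27 and -0.93 in those of the double mutant. The strains overlapped with the 4 libraries named above, and apart from these no *gas-1* library reached the others. The median of the other 209 members lay between 3.05 and 3.24 in wt, between 2.03 and 2.30 in *gas-1* mutants and between 3.03 and 3.22 in double mutants, so that no *gas-1* library reached either of the other strains. The rule chose genes with a low *gas-1* mean, so this separation was largely fixed by the choice.

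**Figure D1:**
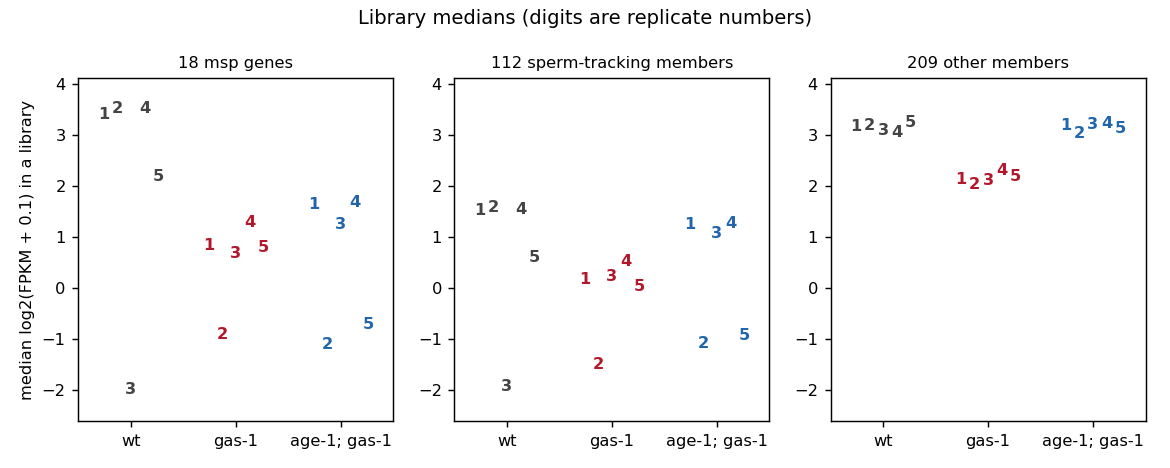
Median log2(FPKM + 0.1) in each library of 18 *msp* genes, of the sperm-tracking members and of the 209 other members, by strain, with the replicate number as the symbol. The sperm-tracking members follow the *msp* genes from library to library, with wt replicate 3 at -1.92, while the other members are between 2.03 and 2.30 in every *gas-1* library and at 3.03 or more elsewhere. Both patterns were largely fixed by how these genes were chosen.

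Over all 321 members the median difference between *gas-1* mutants and wt was -0.75 (range -4.11 to -0.30) and that between the double mutant and *gas-1* mutants was 0.55 (0.30 to 3.76), beside medians of 0.14 and -0.02 over all genes kept. At a false discovery rate (FDR) of 5%, 191 members were called lower in *gas-1* mutants than in wt, beside 24.6% of all genes, and 189 were called higher in the double mutant than in *gas-1* mutants, beside 13.5% of all genes. The rule used both contrasts, so nothing is read from these counts. Of the 209 other members, 188 were called in each contrast. Of the sperm-tracking members, *C30G12.2*, *C45B2.1* and *grd-10* were called lower in *gas-1* mutants and *C30G12.2* was called higher in the double mutant.

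**Figure D2:**
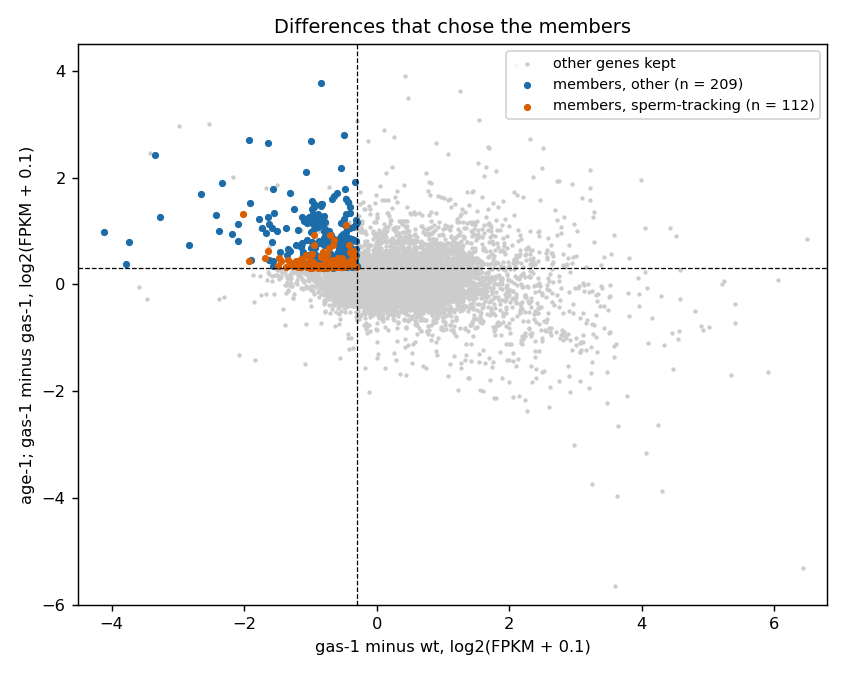
Difference of strain means on the log2(FPKM + 0.1) scale between *gas-1* mutants and wt (x axis) and between *age-1; gas-1* and *gas-1* mutants (y axis) for the 11648 genes kept, with the thresholds of -0.3 and 0.3 as dashed lines. The 209 other members spread to -4.11 on the x axis and to 3.76 on the y axis, and the sperm-tracking members lie mostly near the threshold of the rise, with a median of 0.39.

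All 5 *gas-1* libraries were below all 5 wt libraries for 138 members (18.8% of all genes), and all 5 double-mutant libraries were above all 5 *gas-1* libraries for 168 members (10.6% of all genes). Both held for 118 members (1.48% of all genes), all of them outside the sperm-tracking set. The rule used the same differences, and the sperm-tracking set required a large within-strain SD, so nothing is read from these counts. *F21H7.2* was the sperm-tracking member whose double-mutant libraries were all above those of *gas-1* mutants.

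Genes close to the thresholds were little different on either side. The members with a wt mean of at least 5 FPKM that were nearest the limit of the drop were *bgal-1*, *spp-5* and *ddo-3*, at -0.30, -0.30 and -0.31, and *C02F5.14*, *gsto-3* and *spp-14* lay just outside at -0.30 each. At the limit of the rise, *acs-18*, *spch-1* and *F18E3.12* were members at 0.31 each, and *F36A2.10*, *ZC155.4* and *cylc-1* lay just outside at 0.30 each.

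How far the double mutant returned differed among members. The return was expressed as the rise in the double mutant divided by the drop in *gas-1* mutants, both on the log2 scale, and had a median of 50.5% for the sperm-tracking members and of 109% for the others. Of the 209 other members, 96 (45.9%) were within 0.3 of wt, 53 (25.4%) were lower than wt by at least 0.3 and 60 (28.7%) were higher by at least 0.3. Of the sperm-tracking members, 67 stayed lower than wt by at least 0.3, and *F21H7.2* and *sams-5* exceeded it by as much. The difference between the double mutant and wt is the sum of those that chose the members, and it called 53 members lower (31.2% of all genes) and 57 higher (44.5% of all genes). This split depended on the scaling, with 95 lower and 25 higher under median-of-ratios rescaling and 133 lower and 29 higher under quantile normalization. All genes kept shifted as well, from a median difference of 0.14 as deposited to -0.14 and -0.12 with these scalings. The shift in the counts is thus not particular to the members, and shares of all genes called under these scalings are not given here.

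**Figure D3:**
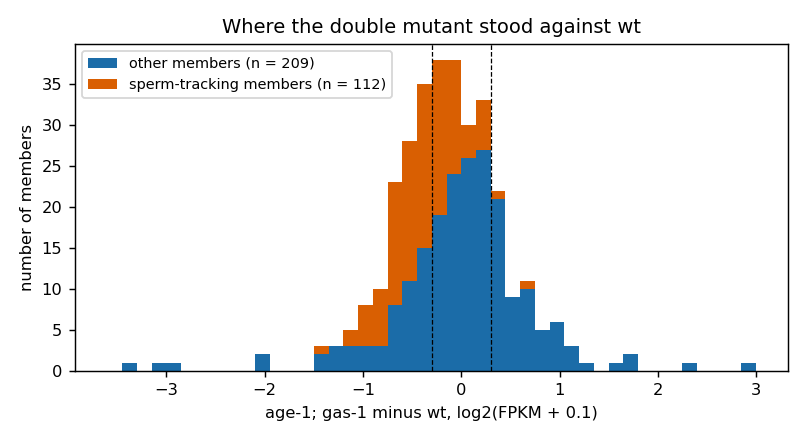
Number of members by the difference between *age-1; gas-1* mutants and wt on the log2(FPKM + 0.1) scale, stacked for the 209 other members and the sperm-tracking members, with dashed lines at -0.3 and 0.3. Of the other members 96 lie between the lines, 60 above and 53 below, while 67 sperm-tracking members lie below.

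Genes of innate defence were among the members with the largest changes. Lysozymes cleave bacterial cell walls and are made by the nematode intestine. The FPKM of *lys-4* were 50.6, 38.4, 22.1, 31.6 and 33.4 in the 5 wt libraries, 4.08, 4.60, 3.87, 7.26 and 8.34 in those of *gas-1* mutants and 24.99, 9.96, 23.8, 23.6 and 11.6 in those of the double mutant. All *gas-1* libraries were below all others, by -2.64 ± 0.31 against wt (SE, log2 scale), and the double mutant regained 63.8% of the drop. Double-mutant replicates 2 and 5, which were low in sperm transcripts, were also lowest for *lys-4* in that strain, and wt replicate 3 was lowest in wt.

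The invertebrate-type lysozyme *ilys-5* was among the most abundant members, with FPKM of 1106, 1157, 942, 983 and 1118 in the 5 wt libraries, 314, 322, 314, 362 and 346 in those of *gas-1* mutants and 743, 573, 669, 683 and 589.7 in those of the double mutant. The strains did not overlap, and the double mutant stayed below wt by -0.71 ± 0.08 on the log2 scale. The lysozyme *lys-7*, a known DAF-16 target, showed another pattern, with FPKM of 2.99, 3.56, 6.799, 1.799 and 4.76 in the 5 wt libraries, 1.71, 1.62, 1.48, 1.76 and 2.43 in those of *gas-1* mutants and 12.16, 11.8, 12.4, 13.8 and 10.1 in those of the double mutant. The *gas-1* libraries overlapped with wt, and the double mutant was far above both, 1.70 ± 0.26 over wt. Of 8 lysozyme genes kept, 3 were called lower and 5 higher in *gas-1* mutants than in wt, beside 24.6% and 44.0% of all genes. In the double mutant 6 were called higher than in *gas-1* mutants, beside 13.5% of all genes.

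The saposin-like proteins include pore-forming antimicrobial peptides. FPKM of *spp-17* were 116, 176, 111, 159.6 and 131 in the 5 wt libraries, 79.7, 99.3, 75.2, 75.4 and 77.7 in those of *gas-1* mutants and 146, 136, 120.03, 145 and 146 in those of the double mutant. The *gas-1* libraries did not overlap with the other strains, and the double mutant returned to within 0.02 of wt. *spp-4* and *spp-5* are neighbours on chromosome X, and their strain means were 27.1 ± 5.32, 18.8 ± 2.23 and 31.2 ± 3.63 FPKM and 254 ± 24.9, 206 ± 26.2 and 471 ± 20.8 FPKM in wt, the single and the double mutant (SD, n = 5). For *spp-5*, whose drop only just met the rule and whose *gas-1* libraries overlapped with wt, the double mutant rose to 0.89 above wt. *fipr-1*, of a family of small proteins linked to fungal infection, averaged 10.9 ± 1.97 FPKM in wt, compared with 4.20 ± 0.801 in *gas-1* mutants and 6.12 ± 0.413 in the double mutant, which regained 40.7% of the drop. Of 32 saposin-like and other antimicrobial genes kept, 8 were called lower and 12 higher in *gas-1* mutants than in wt, beside 24.6% and 44.0% of all genes, and 18 were called higher in the double mutant than in *gas-1* mutants, beside 13.5% of all genes. Their median *gas-1* minus wt difference was 0.10 as deposited and 0.07 with upper-quartile rescaling. It was -0.14 with median-of-ratios rescaling and -0.13 with quantile normalization, so the direction of the list in that contrast depended on the scaling.

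*irg-3* and *irg-4*, genes named for their response to infection, were members as well. FPKM of *irg-4* were 5.61, 6.002, 9.78, 6.201 and 5.87 in the 5 wt libraries, 2.02, 3.01, 1.73, 3.07 and 1.14 in those of *gas-1* mutants and 3.24, 9.73, 3.08, 3.51 and 6.31 in those of the double mutant. The *gas-1* libraries were below all others, and the highest values of the other strains were in wt replicate 3 and in double-mutant replicates 2 and 5, the libraries low in sperm transcripts. *irg-3* averaged 9.20 ± 1.25, 5.08 ± 1.79 and 10.6 ± 0.798 FPKM in the same order of strains, and the double mutant was 0.21 ± 0.18 from wt on the log2 scale. Of 48 pathogen-response and *pals* genes kept, 36 were called higher and 6 lower in *gas-1* mutants than in wt, beside 44.0% and 24.6% of all genes.

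Hydrolases of the lysosome and the gut lumen formed a group with mostly moderate drops. *cpr-1*, a cathepsin B-like protease of the intestine, had FPKM of 96.2, 58.6, 41.4, 47.4 and 65.5 in the 5 wt libraries, 28.2, 25.5, 26.4, 30.9 and 43.9 in those of *gas-1* mutants and 72.0, 73.4, 82.8, 77.3 and 73.4 in those of the double mutant. A single *gas-1* value reached into the wt range, and every double-mutant library was above every *gas-1* library. *ctsa-1.1*, which is related to cathepsin A, was expressed evenly between replicates, with FPKM of 231, 234, 192, 235 and 209 in the 5 wt libraries, 125, 125, 127, 129 and 137 in those of *gas-1* mutants and 234, 239, 247, 245 and 234 in those of the double mutant. The *gas-1* libraries formed a narrow group well below the others, -0.78 ± 0.05 against wt, and the double mutant was 0.13 ± 0.05 above wt.

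The acid phosphatases *pho-11* and *pho-14*, both on chromosome II, differed in how far they returned. FPKM of *pho-14* were 189.9, 195, 198, 197 and 198 in the 5 wt libraries, 111, 113, 107, 115 and 120.5 in those of *gas-1* mutants and 195, 214, 199, 216 and 207 in those of the double mutant. Replicates differed little, the *gas-1* libraries were separate from both strains, and the double mutant was 0.08 ± 0.04 from wt. *pho-11* averaged 129.7 ± 35.6 FPKM in wt, compared with 70.9 ± 13.04 in *gas-1* mutants and 199 ± 24.8 in the double mutant, 0.66 above wt, and its lowest wt library, replicate 3, was within the *gas-1* range. Among 12 acid phosphatases kept, 3 were called lower and 4 higher in *gas-1* mutants than in wt, near the 24.6% and 44.0% of all genes.

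The glycosidases *bgal-1*, a beta-galactosidase, and *gba-3*, a homolog of human glucocerebrosidase, had smaller drops, -0.30 and -0.44 on the log2 scale. In the double mutant *bgal-1* averaged 17.5 ± 1.30 FPKM, compared with 9.57 ± 0.429 in wt, and *gba-3* averaged 3.59 ± 0.217, compared with 3.05 ± 0.228. Both genes were thus higher in the double mutant than in either of the other strains by strain means. The prolyl carboxypeptidase-like *pcp-5* returned to 0.02 from wt, and the trypsin-like *try-14* rose to 0.52 above it. Of 51 lysosomal genes kept, 12 were called lower and 25 higher in *gas-1* mutants than in wt, near the 24.6% and 44.0% of all genes, while 24 were called higher in the double mutant than in *gas-1* mutants, beside 13.5%. Their median *gas-1* minus wt difference was 0.29 as deposited, 0.05 with median-of-ratios rescaling and 0.02 with quantile normalization.

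Of 28 intestine markers, 20 were called higher and 1 lower in *gas-1* mutants than in wt, beside 44.0% and 24.6% of all genes, with a median difference of 0.67. In the double mutant 7 were called higher and 3 lower than in *gas-1* mutants, beside 13.5% and 19.5% of all genes, and the median difference was 0.03. Their summed FPKM was 30228 to 40799 in wt, 52328 to 67220 in *gas-1* mutants and 84922 to 104266 in the double mutant, but the yolk protein gene *vit-2*, named for its share after the values were seen, alone made up 92.0%, 92.9% and 94.1% of it in these strains. None of the intestine markers was at 0 in all libraries of a strain, and *cpr-1* was the marker that was also a member. Their part in the results above was not tested.

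Proteins that carry lipids supplied 7 members among 25 genes kept. The *vit* genes encode yolk proteins, which the adult hermaphrodite intestine secretes for uptake by oocytes, and they were abundant in these animals. FPKM of *vit-3* were 3314, 3852, 5179.8, 3249 and 3564 in the 5 wt libraries, 439, 538, 458, 331 and 261 in those of *gas-1* mutants and 845, 1175, 759.6, 787 and 1278 in those of the double mutant. All *gas-1* libraries were below all others, by -3.26 ± 0.20 against wt, and all double-mutant libraries were between the other strains, so that 38.9% of the drop was regained.

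Its neighbour *vit-4* had strain means of 379 ± 48.3, 142 ± 37.6 and 211 ± 38.9 FPKM, and the double mutant regained 41.5%. *vit-5*, chosen after its values were seen, had means of 1328 ± 234 FPKM in wt, 937 ± 114 in *gas-1* mutants and 2237 ± 615 in the double mutant, 0.73 ± 0.17 above wt. The 3 genes are close copies, and short reads shared between them could have been divided by the counting, so values of single copies are uncertain. Within strains they ran against the sperm genes, with correlations of -0.74, -0.64 and -0.76 with the *msp* median over 15 libraries.

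The *far* genes encode nematode fatty acid- and retinol-binding proteins. *far-1* and *far-2* lie beside each other on chromosome III and were among the members with the least spread. FPKM of *far-2* were 1133, 1143, 1128, 1184 and 1212 in the 5 wt libraries, 655, 678, 627, 695 and 741 in those of *gas-1* mutants and 989.8, 997, 948, 1039 and 1058 in those of the double mutant. No strain overlapped with another, and the double mutant remained -0.21 ± 0.05 from wt. *far-1* averaged 624 ± 51.9, 304 ± 12.8 and 446 ± 21.4 FPKM and regained 53.4% of its drop.

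*far-8* had FPKM of 36.1, 42.6, 40.01, 31.01 and 43.5 in the 5 wt libraries, 15.7, 14.4, 15.1, 16.5 and 19.5 in those of *gas-1* mutants and 40.04, 42.9, 48.1, 44.7 and 40.6 in those of the double mutant. The *gas-1* libraries were below all others and the double mutant overlapped with wt. *lbp-2*, of the fatty acid-binding protein family, averaged 107 ± 6.49 FPKM in wt, compared with 51.8 ± 7.24 in *gas-1* mutants and 91.5 ± 4.47 in the double mutant, -0.22 ± 0.08 from wt. Of the 25 lipid-binding and yolk genes, 9 were called lower and 12 higher in *gas-1* mutants than in wt, beside 24.6% and 44.0% of all genes, and their median of 0.22 turned to -0.07 with quantile normalization. In the double mutant 13 of them were called higher than in *gas-1* mutants, beside 13.5% of all genes.

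Among enzymes of lipid metabolism, *fat-5*, a desaturase that acts on palmitoyl-CoA, had the highest rank by the smaller of its 2 differences among genes with a known name. Its FPKM were 2.99, 7.10, 3.33, 4.54 and 9.37 in the 5 wt libraries, 1.28, 1.48, 0.978, 1.04 and 1.496 in those of *gas-1* mutants and 8.41, 8.06, 8.67, 10.1 and 8.07 in those of the double mutant. All *gas-1* libraries were below all others, by -1.92 ± 0.26 against wt, and the double mutant was 0.78 ± 0.26 above wt, with a narrower range than wt. *dgat-2*, a diacylglycerol acyltransferase of fat storage, had FPKM of 3.88, 4.05, 5.65, 3.42 and 4.23 in the 5 wt libraries, 1.84, 1.78, 1.48, 2.27 and 2.01 in those of *gas-1* mutants and 4.02, 2.46, 4.09, 3.74 and 2.35 in those of the double mutant. The *gas-1* libraries were below the others, although only slightly below double-mutant replicates 2 and 5. Of 26 genes of fatty acid synthesis, desaturation and elongation, 3 were called lower and 14 higher in *gas-1* mutants than in wt, beside 24.6% and 44.0% of all genes. Their median difference was 0.18 as deposited, 0.15 with upper-quartile rescaling, 0.16 with quantile normalization and -0.06 with median-of-ratios rescaling. Its direction thus turned only under the last of these.

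A few genes of fatty acid and propionate breakdown were members. *acdh-2*, an acyl-CoA dehydrogenase, had FPKM of 114, 77.3, 53.5, 67.3 and 106 in the 5 wt libraries, 29.6, 26.5, 29.2, 23.5 and 27.8 in those of *gas-1* mutants and 35.0, 29.7, 45.6, 33.8 and 31.5 in those of the double mutant. The strains were separate from each other, the mutants only narrowly, and the double mutant regained 22.5% of the drop. *hach-1*, a hydrolase of the propionate shunt, an alternative route of propionate breakdown, had FPKM of 146, 109, 83.7, 109.5 and 113 in the 5 wt libraries, 52.1, 48.99, 51.98, 49.7 and 52.7 in those of *gas-1* mutants and 75.4, 72.8, 81.7, 79.1 and 65.9 in those of the double mutant. The *gas-1* libraries spanned a narrow range below all others, and 49.4% of the drop was regained.

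*ech-6*, an enoyl-CoA hydratase of the same route, averaged 139.9 ± 15.2 FPKM in wt, compared with 108 ± 6.69 in *gas-1* mutants and 136 ± 20.7 in the double mutant. It followed the sperm genes within strains (correlation 0.85) but with a within-strain SD of only 0.17. The peroxisomal acyl-CoA oxidase *acox-1.3* averaged 14.5 ± 4.30, 8.30 ± 0.579 and 11.4 ± 2.499 FPKM and was not called in the rise. Of 66 genes of fatty acid activation and oxidation kept, 38 were called higher and 7 lower in *gas-1* mutants than in wt, beside 44.0% and 24.6% of all genes, and 15 were called higher in the double mutant than in *gas-1* mutants, beside 13.5%. Of these 66 genes, 6 were members, including the sperm-tracking *acs-10* and *acs-18*.

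Secreted signals and their transport supplied members as well. Hedgehog-related proteins such as the groundhog (*grd*) family are found in nematode epithelia. *grd-3* had FPKM of 47.4, 70.9, 42.5, 51.9 and 57.4 in the 5 wt libraries, 19.2, 13.6, 20.6, 18.7 and 19.4 in those of *gas-1* mutants and 50.98, 42.9, 46.2, 52.1 and 39.0 in those of the double mutant. The *gas-1* libraries were far below the other strains, by -1.55 ± 0.14 against wt, and the double mutant overlapped with wt. *grd-5* showed means of 28.1 ± 5.93, 12.4 ± 2.49 and 24.8 ± 2.64 FPKM and regained 86.2% of its drop.

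*grd-10*, next to *grd-3* on chromosome IV, was instead a sperm-tracking member, with FPKM of 15.4, 23.6, 3.50, 18.1 and 14.5 in the 5 wt libraries, 5.11, 3.42, 5.58, 6.66 and 6.08 in those of *gas-1* mutants and 8.53, 4.64, 8.15, 9.55 and 4.30 in those of the double mutant. Its strains overlapped, and it regained 27.2% of the drop. Of 38 hedgehog- and patched-related genes kept, 7 were called lower and 26 higher in *gas-1* mutants than in wt, beside 24.6% and 44.0% of all genes.

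*ins-27*, an insulin-like peptide, was low in all strains, with FPKM of 0.626, 0.778, 0.4997, 0.789 and 0.666 in the 5 wt libraries, 0.377, 0.444, 0.363, 0.605 and 0.520 in those of *gas-1* mutants and 1.55, 1.56, 1.54, 1.72 and 1.51 in those of the double mutant. The *gas-1* and wt libraries overlapped, and every double-mutant library was above every other, 1.13 ± 0.14 over wt. No wt or *gas-1* library reached 1 FPKM, so *ins-27* passed the filter through the double-mutant libraries alone. Its separation was thus fixed by the filter, and nothing is read from it. *mig-14*, which encodes the Wnt secretion factor Wntless and was chosen after its values were seen, had FPKM of 57.3, 57.9, 77.5, 57.7 and 61.4 in the 5 wt libraries, 32.5, 37.96, 33.2, 32.2 and 33.8 in those of *gas-1* mutants and 53.8, 66.7, 52.2, 53.4 and 64.03 in those of the double mutant. The *gas-1* libraries were below all others, the double mutant overlapped with wt, and the within-strain correlation with the *msp* genes was -0.97, the most negative of any member.

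*mdl-1* encodes a Mad-like bHLH transcription factor that is known as a DAF-16 target. Its FPKM were 29.1, 36.2, 40.1, 25.5 and 27.8 in the 5 wt libraries, 22.4, 10.03, 24.4, 15.4 and 7.81 in those of *gas-1* mutants and 31.97, 32.2, 36.4, 33.8 and 33.0 in those of the double mutant. The *gas-1* libraries were below the others but varied more, between 7.81 and 24.4, than those of the double mutant. *dct-7*, named as a gene controlled by DAF-16, had FPKM of 3.65, 0.729, 6.24, 1.01 and 3.58 in the 5 wt libraries, 1.68, 0.590, 1.79, 0.380 and 0.1497 in those of *gas-1* mutants and 5.08, 3.67, 6.67, 4.55 and 4.24 in those of the double mutant. Its wt libraries overlapped with *gas-1* mutants, and its within-strain SD of 1.04 was among the largest outside the sperm-tracking set. A fixed, partial list of genes known to be raised by DAF-16 did not hold *mdl-1* or *dct-7*. Of its 23 genes kept, *fat-5* and *lys-7* were members. From this list 15 were called higher and 3 lower in *gas-1* mutants than in wt, beside 44.0% and 24.6% of all genes. In the double mutant 17 were called higher than in *gas-1* mutants, beside 13.5% of all genes.

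*swt-3*, a sugar transporter of the SWEET family, had a deep drop and a small return. Its FPKM were 74.9, 93.5, 116, 61.2 and 62.7 in the 5 wt libraries, 10.04, 8.53, 12.1, 15.1 and 10.4 in those of *gas-1* mutants and 23.5, 13.4, 24.3, 19.8 and 14.1 in those of the double mutant. Both mutant strains were below all wt libraries and overlapped with each other, and the double mutant regained 26.1% of the drop. The serpins *srp-1* and *srp-3*, serine protease inhibitors, ended above wt in the double mutant by 0.22 and 1.65 on the log2 scale. For *srp-3* the mean was 4.89 ± 0.798 FPKM in the double mutant, compared with 1.49 ± 0.271 in wt and 1.03 ± 0.336 in *gas-1* mutants. The galectin *lec-5* also exceeded wt, with means of 51.9 ± 3.58, 29.2 ± 4.61 and 67.2 ± 3.07 FPKM, while *nas-20*, an astacin metalloprotease, stayed below it at 41.6 ± 10.8, 13.5 ± 2.46 and 28.2 ± 4.07 FPKM. *ule-4*, named for expression in the uterine lumen, averaged 397 ± 41.2 FPKM in wt, compared with 217 ± 37.8 in *gas-1* mutants and 537 ± 32.6 in the double mutant.

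Of the 30 members that ranked first by the smaller of their differences, with a wt mean of at least 5 FPKM, 18 had a sequence name only. *T22B7.7* on chromosome X led the rank, with FPKM of 29.5, 37.6, 7.85, 32.4 and 9.45 in the 5 wt libraries, 1.62, 2.70, 1.95, 1.68 and 1.35 in those of *gas-1* mutants and 9.32, 10.4, 10.2, 9.15 and 12.1 in those of the double mutant. All strain pairs with *gas-1* were separate, but the wt libraries fell into high values in replicates 1, 2 and 4 and low values in replicates 3 and 5. *F23F12.12* had FPKM of 9.98, 10.8, 14.7, 8.47 and 11.4 in the 5 wt libraries, 2.72, 2.15, 2.60, 2.56 and 0.965 in those of *gas-1* mutants and 10.4, 4.28, 11.1, 9.68 and 6.92 in those of the double mutant. Its *gas-1* libraries were below all others, with replicate 5 lowest.

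*Y57G11B.5* on chromosome IV had FPKM of 44.8, 53.3, 39.6, 50.99 and 55.2 in the 5 wt libraries, 10.5, 9.52, 10.8, 12.59 and 13.5 in those of *gas-1* mutants and 26.2, 18.4, 29.8, 31.1 and 21.3 in those of the double mutant. No strain overlapped with another, and 54.1% of the drop was regained. *Y32B12B.4* on chromosome V varied little between replicates, with FPKM of 66.6, 68.1, 68.5, 68.4 and 70.4 in the 5 wt libraries, 23.2, 23.9, 26.01, 22.3 and 15.7 in those of *gas-1* mutants and 54.3, 51.9, 54.6, 50.04 and 52.02 in those of the double mutant. The double mutant lay below every wt library and above every *gas-1* library. *T13F3.6* had means of 50.6 ± 5.01, 9.69 ± 1.25 and 19.6 ± 3.03 FPKM, *C50B6.7* means of 17.2 ± 3.33, 6.004 ± 2.62 and 20.2 ± 5.53 FPKM, and *T12B5.15* means of 5.89 ± 1.30, 1.497 ± 0.381 and 4.46 ± 0.778 FPKM in wt, the single and the double mutant. Of these, *C50B6.7* overlapped with wt in the double mutant and *T13F3.6* stayed -1.37 from it.

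**Figure D4:**
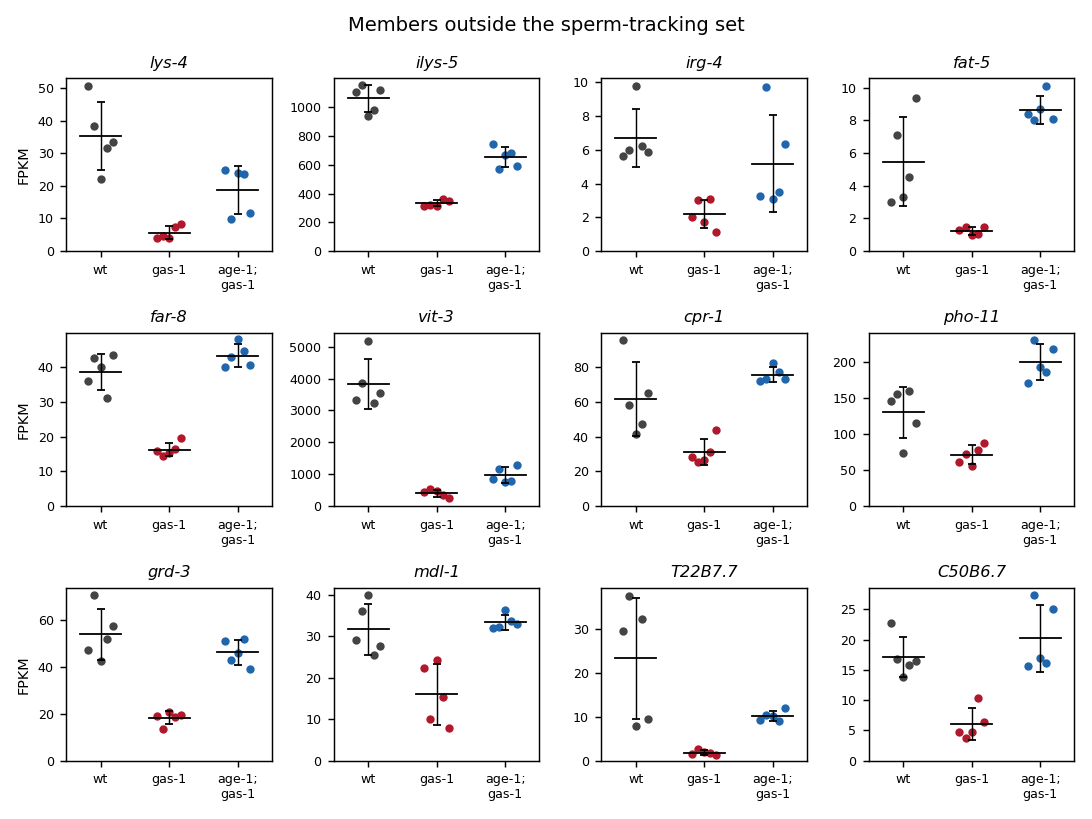
FPKM in each library (points) with the mean and SD of 5 libraries (lines) for 12 members outside the sperm-tracking set, by strain. In all of them the *gas-1* mean is the lowest, while the double mutant ends above wt for *fat-5* (8.67 compared with 5.47 FPKM) and far below it for *vit-3* (969 compared with 3832 FPKM).

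The deepest drop of all was that of *F42A10.7*, with FPKM of 47.3, 54.9, 32.4, 53.7 and 43.2 in the 5 wt libraries, 2.35, 2.05, 2.14, 5.98 and 1.70 in those of *gas-1* mutants and 3.06, 7.31, 3.80, 4.31 and 9.53 in those of the double mutant. The double mutant overlapped with *gas-1* mutants and stayed -3.13 from wt. Its neighbour on chromosome III, *F42A10.6*, was low in expression and returned beyond wt, with means of 1.69 ± 0.202, 0.840 ± 0.175 and 2.59 ± 0.623 FPKM. The sources used here do not say whether reads were assigned by strand, so neighbours that overlap could share reads. *Y69A2AR.12* and *Y48E1B.8*, chosen after their values were seen, regained the least, 9.84% and 21.3% of drops of -3.78 and -3.74. *F55G11.4* and *Y110A2AL.3*, chosen in the same way, exceeded their drops most, with 580.1% and 565% regained from drops of -0.33 and -0.49.

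The sperm-tracking members held 6 of the 55 sperm marker genes kept, namely *nspd-4*, *nspd-6*, *nspd-9*, *ssp-9*, *ssp-16* and *ssq-1*. Over these 55 genes, 18 of them with left-out names, the median *gas-1* minus wt difference was -1.19. In that contrast 4 were called higher and 2 lower, beside 44.0% and 24.6% of all genes. With all libraries, their median *age-1; gas-1* minus *gas-1* difference was 0.14, so most of the list did not meet the rise. There 1 was called higher and 1 lower, beside 13.5% and 19.5% of all genes. These values include the libraries low in sperm transcripts, among them double-mutant replicates 2 and 5. Without the 4 such libraries, another 248 genes within the limits of the sperm-tracking set met the rule. The *ssp* and *ssq* families are sperm-specific, and the *nspd* genes belong to a nematode-specific peptide family. FPKM of *ssq-1* were 12.001, 12.3, 0.304, 12.7 and 5.93 in the 5 wt libraries, 2.45, 0.744, 2.24, 3.33 and 2.22 in those of *gas-1* mutants and 5.09, 0.836, 3.62, 5.84 and 1.06 in those of the double mutant. The libraries low in sperm transcripts had the lowest values of their strain, and the strains overlapped. FPKM of *nspd-4* were 5.82, 6.03, 0.154, 6.27 and 3.24 in the 5 wt libraries, 0.851, 0.142, 0.782, 1.36 and 0.721 in those of *gas-1* mutants and 2.01, 0.224, 1.5002, 2.15 and 0.355 in those of the double mutant, and the same libraries were lowest.

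Other members of known function in sperm followed the same order of libraries. The set required a correlation of at least 0.8 with the *msp* genes, so this order was largely fixed by the choice. *spch-1* and *spch-3* encode sperm chromatin proteins, *smz-1* encodes a PDZ domain protein of sperm meiosis and *gipc-1* another PDZ domain protein, the last 2 chosen after their values were seen. FPKM of *gipc-1*, the most abundant of these, were 88.1, 86.2, 1.97, 86.2 and 42.2 in the 5 wt libraries, 21.5, 6.02, 22.7, 30.6 and 20.4 in those of *gas-1* mutants and 60.4, 5.85, 45.3, 64.3 and 7.50 in those of the double mutant. Its libraries ranged within wt by more than the strain means differed. For *spch-1* the means were 19.5 ± 12.3, 7.76 ± 3.67 and 12.3 ± 9.38 FPKM, and for *smz-1* they were 5.76 ± 3.55, 2.13 ± 0.806 and 3.09 ± 1.95 FPKM. Correlations with the *msp* median were 0.99 for *nspd-4*, 0.99 for *spch-1* and, on rounding, 1.00 for *gipc-1* over the 15 libraries. *C30G12.2*, which ranked among the first 30 members, was the exception that was called in both contrasts, with FPKM of 56.1, 43.1, 7.94, 41.99 and 22.01 in the 5 wt libraries, 6.06, 4.76, 6.58, 9.64 and 8.47 in those of *gas-1* mutants and 26.2, 8.93, 25.4, 25.5 and 10.2 in those of the double mutant. Its values in wt replicate 3 and in double-mutant replicates 2 and 5 were still near those of *gas-1* mutants.

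**Figure D5:**
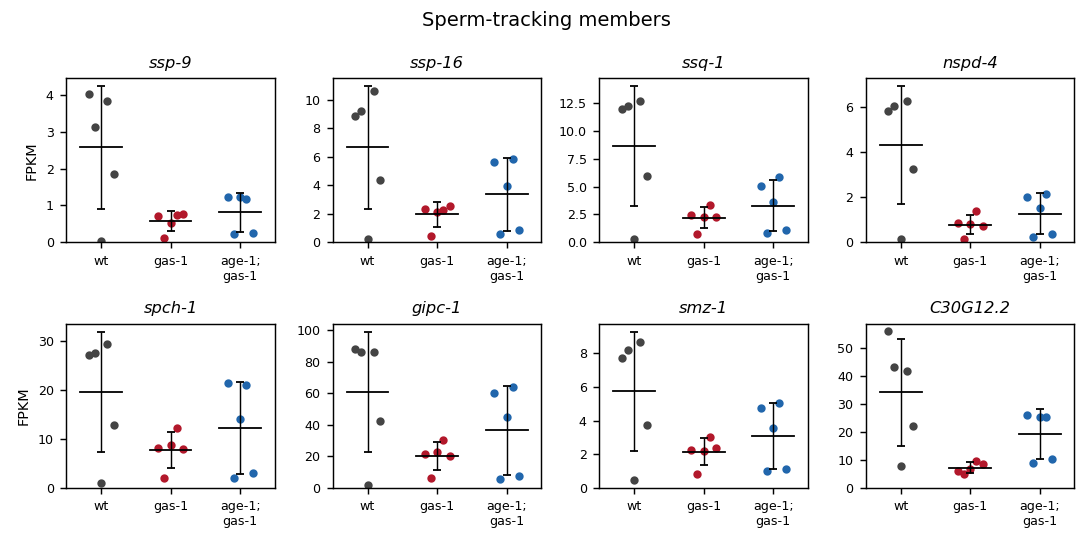
FPKM in each library (points) with the mean and SD of 5 libraries (lines) for 8 sperm-tracking members, by strain. In each panel wt replicate 3 is far below the other wt libraries and a pair of double-mutant libraries is far below the rest, as for *gipc-1* with 1.97 FPKM in wt replicate 3 and 5.85 and 7.50 in the double mutant.

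Without the 4 libraries low in sperm transcripts, the median difference of the sperm-tracking members was -1.16 between *gas-1* mutants and wt and 0.95 between the double mutant and *gas-1* mutants, compared with -0.78 and 0.39 with them. Then 108 of them were called lower in *gas-1* mutants (27.9% of all genes) and 101 higher in the double mutant (13.9% of all genes). The members were chosen by these contrasts and by their correlation with the *msp* genes, and the libraries were left out for low sperm transcripts, so these counts were largely fixed by the choice and nothing is read from them. All 4 remaining *gas-1* libraries were below all 4 wt libraries for 61 of them (25.3% of all genes), and all 3 double-mutant libraries were above the *gas-1* libraries for 103 (17.7% of all genes). Both held for 57 (3.94% of all genes), and these counts too were largely fixed by the choice. Between the double mutant and wt, their median difference was -0.22, and 15 were called lower (30.8% of all genes). The other 209 members had nearly the same medians without these libraries, -0.72 and 0.77, with 188 and 185 calls. In all, 578 genes met the rule without them, including every sperm-tracking member and 187 of the others.

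The set of sperm-tracking members also depended on single libraries. Without *gas-1* replicate 2, 210 genes met the rule, and only 9 sperm-tracking members were among them. Without *age-1; gas-1* replicate 1, 3 or 4 the rule gave 227, 234 and 229 genes, and without replicate 2 or 5 it gave 517 and 506. Of the 209 other members, 163 met the rule in all 15 sets that left out 1 library.

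Some features of the members are given as a description. The wt level of members had a median of 4.60 FPKM, compared with 10.5 over all genes kept, and was 1.95 for the sperm-tracking members and 9.20 for the others. The rule and its filter used the wt values, and the sperm-tracking set required a large within-strain SD, so nothing is read from these levels. Position in the genome was not used by the rule. Chromosome IV held 35.7% of the sperm-tracking members and 16.7% of all genes kept, and chromosome X held 0.893% of them, which was *C45B2.1*, and 1626 of the 11648 genes kept. The other members were spread as 23 on chromosome I, 32 on II, 26 on III, 41 on IV, 50 on V and 36 on X.

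Of 317 protein-coding members with a position, 37 lay directly beside another member in the order of protein-coding genes of the WBcel235 annotation, or 11.7%, while 3.05% of all genes kept lay beside a member. They formed 18 runs, of which the longest was *spch-3*, *T27A3.5* and *ssp-16* on chromosome I, all sperm-tracking. Runs outside the sperm-tracking set included *far-1* with *far-2*, *vit-4* with *vit-3*, *spp-4* with *spp-5* and *dct-7* with *F15E6.4*. The latter pair lay on chromosome IV, and *F15E6.4* had FPKM of 4.28, 3.15, 5.38, 2.83 and 5.29 in the 5 wt libraries, 1.85, 1.64, 1.89, 1.48 and 1.17 in those of *gas-1* mutants and 5.25, 5.10, 5.61, 5.47 and 5.75 in those of the double mutant, with all *gas-1* libraries below all others. Genes of 1 family that lie side by side can share sequence, and their values are then not independent.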

How the data were processed

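Libraries were prepared by the authors for polyadenylated RNA (stranded kit, 100 ng of input RNA) and sequenced from a single end over 50 bases. For each of the 15 libraries the authors deposited a table of FPKM per gene (20483 genes). The submitters' processing notes name STAR 2.4.0h, CASAVA 1.8.2, Cuffdiff, Cufflinks 2.1.1 and FastQC 0.10.1. Build, annotation and strand setting: not given in the sources used here. The values thus include the authors' alignment, assignment to genes and scaling, and a rise in a few abundant genes lowers the FPKM of the rest. Read totals could not be recovered, so the depth behind each value is unknown; FPKM summed to 658126 to 702623 per library, and the spacing of low values gave only a rough estimate of relative depth, from -0.39 to 0.59 on the log2 scale (9.44% to 13.6% of ratios in the modal bin).

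Groups came from the sample titles. Values were analysed as log2(FPKM + 0.1), which understates changes of low genes, with limma 3.58.1 in R 4.3.3 (1 fit of the 3 strains with a mean-variance trend, Benjamini-Hochberg adjustment over 11648 genes within each comparison, calls at 5% FDR), tested on simulated data first. The members, the 46 gene lists and the tests were chosen with earlier results of these data known. Symbols were matched for 19606 of 20483 identifiers, and 4 members had none. Chromosomes and gene order were those of WBcel235, matched by identifier. Named genes are the first 30 members by the smaller of drop and rise whose wt mean reached 5 FPKM, no more than 4 members of each list, the 3 genes nearest each threshold, the mutated genes and neighbouring members; *vit-2*, *vit-5*, *ssp-9*, *ssq-1*, *gipc-1*, *smz-1* and *mig-14*, and the genes named for their extreme return or as sperm-tracking exceptions, were picked after their values were seen. The alternatives varied the pseudocount, the filter, the scaling, the thresholds, the FDR, the trend, a replicate block and leaving out libraries. Promoter motifs and protein lengths were not analysed here. Figures were drawn with matplotlib 3.10.9.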

Additional observations from a re-analysis of the deposited data

Results flagged for a closer look

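In some groups of 5 libraries the highest or lowest library stood apart, with a gap to its nearest neighbour of more than 0.71 of the group's range on the log2 scale. This held for 25 of 192 groups (64 genes in 3 strains). Chance alone flags about 1 in 20 groups only where groups are independent. Here every gene used the same libraries, and the sperm-tracking members were chosen for a shared within-strain pattern. Nothing is therefore read from this count.

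Most of these were sperm-tracking members with wt replicate 3 or *gas-1* replicate 2 at the bottom. In wt the gap was 0.79 of the range for *ssp-9*, 0.75 for *ssp-16*, 0.78 for *ssq-1*, 0.80 for *nspd-4*, 0.75 for *spch-1*, 0.79 for *spch-3*, 0.80 for *gipc-1* and 0.74 for *grd-10*. In *gas-1* mutants it was 0.77 for *ssp-9*, 0.88 for *ssp-16*, 0.72 for *ssq-1*, 0.77 for *spch-1*, 0.72 for *spch-3*, 0.75 for *gipc-1*, 0.74 for *smz-1* and 0.77 for *T27A3.5*.

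Among the other members, wt replicate 3 stood highest for *irg-4* (0.82) and *mig-14* (0.77) and lowest for *lec-5* (0.79). In *gas-1* mutants, replicate 2 stood highest for *spp-17* (0.79) and lowest for *grd-3* (0.77), replicate 4 highest for *F42A10.7* (0.75) and replicate 5 lowest for *F23F12.12* (0.77). In *age-1; gas-1* mutants, replicate 3 stood highest for *bgal-1* (0.87) and replicate 4 highest for *ins-27* (0.75).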

How the results depend on the processing

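The number of genes meeting the rule was 198 with a pseudocount of 1 FPKM, 515 without the filter, 154 with a filter of 5 FPKM, 503 with quantile normalization, 488, 129 and 27 with thresholds of 0.2, 0.5 and 1, 578 without the 4 libraries low in sperm genes, and 210 (without *gas-1* replicate 2) to 517 (without *age-1; gas-1* replicate 2) leaving out 1 library. The median *gas-1* minus wt difference of members was -0.57 with a pseudocount of 1 FPKM, -0.97 with median-of-ratios rescaling and -1.23 with quantile normalization, and -0.999 (without wt replicate 3) to -0.57 (without *gas-1* replicate 2) leaving out 1 library. All genes together shifted as well, from 0.14 as deposited to -0.10 with median-of-ratios rescaling and -0.08 with quantile normalization. The median *age-1; gas-1* minus wt difference of members was -0.41 and -0.60 with these scalings and -0.32 to 0.0347 leaving out 1 library. Over all genes it moved from 0.14 as deposited to -0.14 and -0.12 with these scalings. The median *age-1; gas-1* minus *gas-1* difference of members was 0.89 without the 4 libraries and 0.49 to 0.77 leaving out 1. Members called lower in *gas-1* mutants numbered 127 of the 154 left by the filter of 5 FPKM and 293 with quantile normalization. They numbered 296 without the 4 libraries (27.9% of all genes) and 181 to 274 leaving out 1 library. Members called higher in the double mutant than in *gas-1* mutants numbered 124 of 154 with that filter. They numbered 286 without the 4 libraries (13.9% of all genes) and 172 to 196 leaving out 1 library. Compared to wt, the double mutant had 95 members called lower and 25 higher with median-of-ratios rescaling, 133 and 29 with quantile normalization, 35 higher with the filter of 5 FPKM, and 48 to 85 lower (the most without wt replicate 3) and 45 to 61 higher leaving out 1. Where the filter was stricter only 154 of the 321 members were tested, and the cause of the other shifts was not tested. Other shares of all genes called under these settings are not given here, so nothing is read from these counts.

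Of the values of 64 genes in the text under these settings, 11 turned in sign. The *age-1; gas-1* minus wt difference became -0.0534 for *F42A10.6* and -0.0466 for *F15E6.4* with quantile normalization, and 0.0436 for *F23F12.12* and 0.0247 for *dgat-2* without the 4 libraries. For *spch-3* it ranged from -1.24 (without wt replicate 3) to 0.0527 (without *age-1; gas-1* replicate 2) leaving out 1 library. The *age-1; gas-1* minus *gas-1* difference was lowest without *gas-1* replicate 2 and highest without *age-1; gas-1* replicate 2, ranging from -0.0391 to 0.66 for *ssp-9*, -0.0006 to 0.70 for *ssq-1*, -0.13 to 0.80 for *spch-1* and -0.0018 to 0.79 for *spch-3*; without *age-1; gas-1* replicate 1 or 4 it was -0.0305 and -0.0218 for *spch-1*.

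The sample titles give a replicate number but do not say whether equal numbers were collected together. Of 15 pairs of libraries with the same number, 10 had a correlation of deviations over 0.1 (range -0.76 to 0.79). In 2 pairs the correlation was best with the own number. Sperm genes varied strongly between libraries of a strain, so these correlations cannot decide whether the numbers pair the samples. With the replicate number as a block, 189 members were called lower in *gas-1* mutants, 183 higher in the double mutant than in *gas-1* mutants, and 52 lower and 57 higher in the double mutant than in wt. Shares of all genes called with this block are not given here, so nothing is read from these counts.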

Other observations

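Members of no fixed list made up 257 of the 321, and 197 members had a sequence name or identifier only. Lists with members in the sperm-tracking set included those of transport and metabolism, namely the ABC transporters *wht-5* and *wht-6*, the acyl-CoA synthetases *acs-10* and *acs-18*, the phosphoenolpyruvate carboxykinase *pck-3* and the methionine adenosyltransferase *sams-5*. *pck-3* averaged 1.92 ± 1.30 FPKM in wt, compared with 0.987 ± 0.423 in *gas-1* mutants and 1.59 ± 1.16 in the double mutant, and *sams-5* averaged 3.39 ± 1.53, 2.29 ± 0.7499 and 4.07 ± 1.72 FPKM, with overlapping strains for both.

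Outside the sperm-tracking set, *gpx-3*, of the glutathione peroxidase family, was the member among 42 genes of superoxide, peroxide and thiol defence, at 3.21 ± 0.679, 2.06 ± 0.390 and 3.04 ± 0.647 FPKM. *heh-1*, related to the sterol-binding protein NPC2, averaged 75.8 ± 2.91, 38.9 ± 5.22 and 67.2 ± 2.75 FPKM, and the chitinase *cht-3* 117 ± 9.22, 70.6 ± 2.45 and 118 ± 11.1 FPKM, with no *gas-1* library reaching either of the other strains for both genes, which were chosen after their values were seen. Lists without a member included 78 ribosomal protein genes, 52 genes of the respiratory chain and ATP synthase, 45 muscle genes, 80 neuropeptide genes and 61 heat shock and chaperone genes. Within strains, 28 of the 209 other members (13.4%) had a correlation of -0.5 or less with the *msp* genes over the 15 libraries, compared with 29.5% of all genes kept, a value that describes shared libraries and was not tested.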
